A study of Mus musculus with 9 samples.

Results

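Mitochondrial DNA carries a small set of genes that work together with many nuclear genes, and all of them were read here in sorted mouse hematopoietic stem cells (HSCs). The genes were taken as every row of the authors' gene count table whose symbol begins with mt- in lower case. This gave 37 genes of 56748: 13 messenger RNAs, 2 ribosomal RNAs and 22 transfer RNAs. All 37 lie on chromosome MT. The counts came from 9 RNA-seq libraries, 3 each from yHSCs (young HSCs), Selp_low paHSCs and Selp_high paHSCs, where paHSC stands for pre-aged HSC and Selp encodes P-selectin, an adhesion receptor of platelets and endothelium. The mice were untreated females on a C57BL/6 background with no engineered allele stated for these groups, aged 6 to 10 weeks for yHSCs and 14 to 16 months for both paHSC fractions. The cells were sorted from bone marrow by surface markers, the paHSCs being split by P-selectin, and the number of mice or cells behind a library is not given in the sources used here.

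Both strands of mitochondrial DNA are transcribed into long RNAs that are cut into single messengers, ribosomal RNAs and transfer RNAs, largely at the transfer RNAs between them. The messengers encode core subunits of complexes I, III and IV of the respiratory chain and of ATP synthase (complex V), while every other subunit of these complexes, and every protein that copies, transcribes and translates mitochondrial DNA, comes from nuclear genes. HSCs are known for a reliance on glycolysis at rest and for a rise in mitochondrial respiration when they divide or differentiate.

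Depth ranged from 24866975 to 35375310 counts per library, so a count of 0 allows up to 0.0848 to 0.121 CPM (counts scaled to the library total), a limit for counting error only. All 8 HSC markers checked, among them Kit, Slamf1 and Procr, were detected in every library. They summed to 1202 to 2450 CPM in yHSCs, 620 to 1608 CPM in Selp_low paHSCs and 2220 to 3333 CPM in Selp_high paHSCs. The lowest sums of all libraries were those of Selp_low replicates 2 and 3 (702 and 620 CPM). Cd48 and Flt3, checked as markers of cells outside the sort, summed to 264 to 645, 23.8 to 236 and 17.4 to 55.2 CPM in the same order of groups. These genes differed in pattern. Flt3 had 6109 to 20582 counts in yHSCs, 82 to 1295 in Selp_low paHSCs and 166 to 316 in Selp_high paHSCs. Cd48 had 462 to 1251, 606 to 5317 and 450 to 1567 counts in that order. Its highest values were 5317 and 4693 counts, in Selp_low replicates 1 and 2. Markers of other blood cells were also present. Immunoglobulin genes held 41.0% of the counts of Selp_low replicate 2 and 0.0690% to 3.90% elsewhere. The 10 neutrophil markers summed to 168004 CPM in Selp_low replicate 3, 77227 CPM in yHSC replicate 1 and 321 to 44381 CPM in the others, and the 9 megakaryocyte and platelet markers to 156 to 255 CPM in yHSCs, 202 to 1717 CPM in Selp_low paHSCs and 1525 to 9096 CPM in Selp_high paHSCs. B and plasma cell markers summed to 189 to 335 CPM in yHSCs, 65.5 to 57591.5 CPM in Selp_low paHSCs and 407 to 4332 CPM in Selp_high paHSCs. In the same order, T and NK cell markers summed to 67.1 to 106, 266 to 490 and 54.6 to 115 CPM. In Selp_low replicate 3, at 490 CPM, Nkg7 held 16524 counts and the other listed genes 0 to 50. Cd3e, Cd3d and Cd3g had 588 to 3434 counts in Selp_low replicates 1 and 2 and 3 to 221 in the other libraries. Erythroid markers summed to 329 to 3242, 820 to 3568 and 980 to 1358 CPM. Monocyte and macrophage markers summed to 2788 to 12834.5, 851 to 21652 and 1607 to 8016.5 CPM. No listed marker of any of these types was at 0 in every library. As a check of the labels, Selp itself lay at 264 to 652 CPM in Selp_high paHSCs, 29.3 to 109 CPM in Selp_low paHSCs and 20.5 to 30.02 CPM in yHSCs, after scaling by trimmed mean of M-values (TMM) factors. Selp_low replicate 2, at 29.3 CPM, lay inside the range of the yHSCs. In bulk libraries, fewer cells of a type and less RNA per cell cannot be told apart.

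The first question was which of the 37 genes the libraries could read at all. All 13 messengers and both ribosomal RNAs had counts in every library, but 21 of the 22 transfer RNAs had 0 counts in all 9 libraries. The exception was mt-Tp, the transfer RNA for proline (MT:15356-15422 on the minus strand, build mm39), with 83, 33 and 21 counts in the yHSC libraries, 148, 80 and 43 in Selp_low paHSCs and 68, 119 and 19 in Selp_high paHSCs. Its sequence is shown because mt-Tp is the sole transfer RNA with counts, in the sense of the RNA and without the CCA end added later:
mt-Tp: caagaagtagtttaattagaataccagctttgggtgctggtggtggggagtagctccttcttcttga

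Levels of the messengers spanned a wide range. Per gene length and library total, the highest was mt-Cytb (cytochrome b, the mitochondrial subunit of complex III), with a median of 1977 CPM per kilobase over the 9 libraries (957 to 4685). It was followed by mt-Co1, the catalytic subunit of complex IV (median 1296, 911 to 3810.0), and by mt-Nd1 of complex I (median 792, 540 to 2974). The other complex I messengers mt-Nd5, mt-Nd4 and mt-Nd2 had medians of 255, 237 and 196, and mt-Nd6, the only messenger encoded on the opposite strand, of 75.6. On the same scale the ribosomal RNAs had medians of 318 (mt-Rnr2, the 16S rRNA of the large mitochondrial ribosomal subunit) and 75.7 (mt-Rnr1, the 12S rRNA of the small subunit). The 6 lowest messengers were mt-Atp6, mt-Nd3, mt-Co2, mt-Co3, mt-Atp8 and mt-Nd4l, with medians of 21.4, 14.8, 11.4, 9.41, 2.66 and 0.594. With the messengers in order of their medians, the ranges of most neighbours overlapped over the libraries. The exceptions were mt-Nd1 (540 to 2974) above mt-Nd5 (99.9 to 500), and mt-Atp8 (1.76 to 9.86) above mt-Nd4l (0.121 to 0.988). mt-Nd4l was read by 1 to 10 counts per library and is reported as uncertain.

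**Figure D1:**
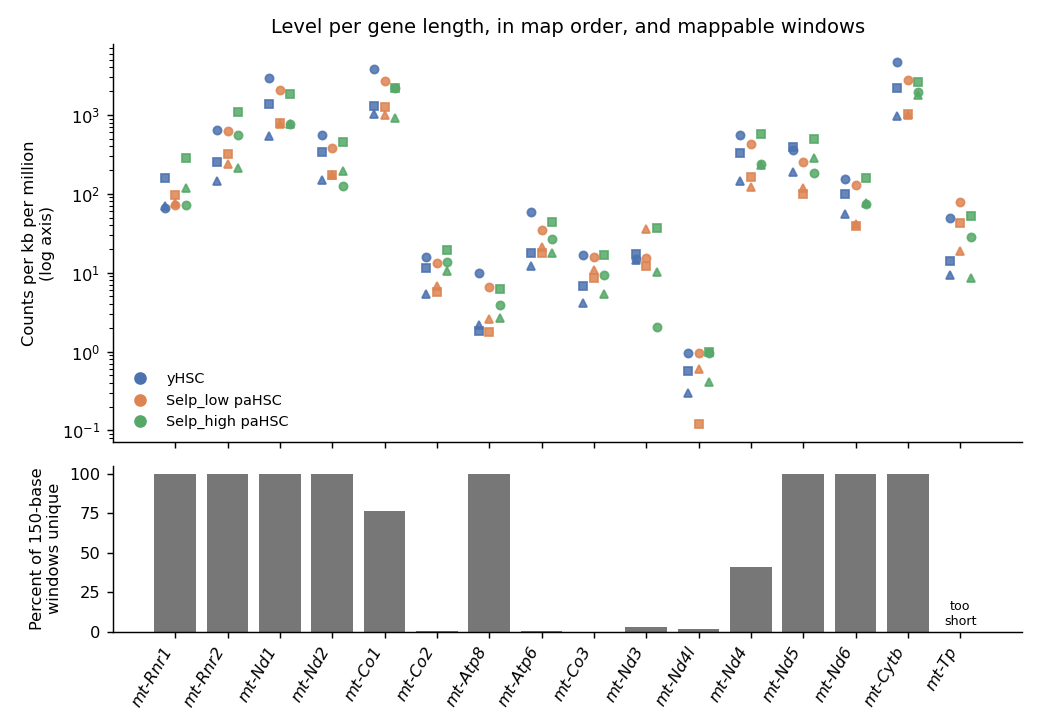
Level of the 16 detected mitochondrial genes in map order (upper axis, CPM per kilobase, log scale; 1 point per library, with circle, square and triangle for replicates 1, 2 and 3) above the percent of 150-base windows of each gene's transcript found in no other annotated transcript (bars). mt-Co2, mt-Atp6, mt-Co3, mt-Nd3 and mt-Nd4l have under 4% unique windows and are among the 6 lowest messengers. mt-Atp8 is also among these 6, and its windows are all unique among annotated transcripts, while unannotated copies were not checked.

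Of the 6 lowest messengers, 5 have near-identical annotated copies in the nuclear genome. The annotation places 7 pseudogenes side by side on chromosome 1 (chr1:24650616-24655278, minus strand, mm39), each a copy of all or part of 1 mitochondrial messenger: Gm29216 (mt-Co1), Gm28661 (mt-Co2), Gm10925 (mt-Atp6), Gm28437 (mt-Co3), Gm28438 (mt-Nd3), Gm10222 (mt-Nd4l) and Gm28439 (mt-Nd4). Over 4149 aligned bases the copies differ from the mitochondrial messengers at 7 positions, of which 6 lie in the copy of mt-Co1 and 1 in that of mt-Nd3. In the transcripts of GENCODE release M21, in which all 37 genes have the lengths of the authors' table, the share of 150-base windows found in no other transcript was 0.56% for mt-Co2, 0.56% for mt-Atp6, 0.16% for mt-Co3, 2.0% for mt-Nd4l and 3.0% for mt-Nd3. It was 40.8% for mt-Nd4, 76.4% for mt-Co1 and 100% for the other messengers and both ribosomal RNAs. Sequence outside annotated transcripts was not checked. This includes the stretch between Gm28661 and Gm10925, the copies of the messengers that flank mt-Atp8, so its value of 100% is an upper limit. The first 60 bases of mt-Co3 and of its copy are printed to show the identity, and the first 33 bases of mt-Nd3 and its copy to show its 1 difference, T3C, in capitals (positions count from 1 at the 5′ end of the mitochondrial gene, whose base comes first):
mt-Co3: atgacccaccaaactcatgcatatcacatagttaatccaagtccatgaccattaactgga
Gm28437: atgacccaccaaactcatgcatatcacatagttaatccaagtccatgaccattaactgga
mt-Nd3: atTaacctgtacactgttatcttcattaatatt
Gm28438: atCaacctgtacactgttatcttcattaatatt

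How the counting treated reads that map to several places is not given in the sources used here, and the counts on the copies were uneven. Gm28437 held 940 to 4106 counts, 4.53 to 11.8 times those of mt-Co3 in the same library. For mt-Atp6 and Gm10925 the ratio of copy to gene was 0.741 to 3.64, for mt-Co2 and Gm28661 it was 0.321 to 3.36, and for mt-Nd4 and Gm28439 it did not exceed 0.00471. All 7 copies together held 0.897 to 4.46 counts per 100 counts on the mitochondrial genes. The 5 messengers with under 4% unique windows supplied 0.424% to 1.00% of all mitochondrial messenger counts, so sums over the messengers rest on the other 8, while single values of these 5 are reported as uncertain.

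Some messengers also overlap on the map. mt-Atp8, the shorter of the mitochondrial ATP synthase messengers, shares its last 43 bases with the start of mt-Atp6 (capitals), and mt-Nd4l its last 7 with mt-Nd4. These overlaps are shown because mt-Atp8 and mt-Nd4l had the lowest levels per length of all 16 detected genes:
mt-Atp8 into mt-Atp6: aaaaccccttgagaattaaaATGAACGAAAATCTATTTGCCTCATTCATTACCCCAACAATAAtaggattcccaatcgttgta
mt-Nd4l into mt-Nd4: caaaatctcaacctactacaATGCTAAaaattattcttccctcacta
On opposite strands, mt-Nd5 and mt-Nd6 share 14 bases. The strand setting of the counting is not given in the sources used here, so reads from the RNA opposite mt-Nd6 cannot be told from its own. The same holds for mt-Tp, which also lies on the minus strand.

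Mitochondrial genes as a whole took a small and variable share of the counts. The share was 1.73%, 0.793% and 0.428% in the yHSC libraries, 1.19%, 0.510% and 0.449% in Selp_low paHSCs and 0.824%, 1.25% and 0.577% in Selp_high paHSCs. The groups overlapped throughout, and within each group the highest library was at least 2 times the lowest. The means were 0.985% ± 0.674 (SD, n = 3), 0.718% ± 0.414 (SD, n = 3) and 0.882% ± 0.339 (SD, n = 3). On the log2 scale, Selp_low paHSCs differed from yHSCs by -0.37 ± 0.73 (SE, exact permutation test, 2-sided, p = 0.7), Selp_high paHSCs from yHSCs by 0.0030 ± 0.67 (p = 1, exact permutation test) and Selp_high from Selp_low paHSCs by 0.37 ± 0.55 (p = 0.5, exact permutation test). With 3 libraries against 3 this test cannot give a p below 0.1. The library with the highest share, yHSC replicate 1, was also the yHSC library with the highest level of neutrophil markers (77227 CPM). Selp_low replicate 3 had the highest neutrophil marker level of all libraries (168004 CPM) and the lowest share of its group (0.449%). The part of those cells in the shares was not tested. With effective library sizes (total times TMM factor) in place of totals the sign turned for Selp_low paHSCs over yHSCs (0.22) and for Selp_high over Selp_low paHSCs (-0.15), and without yHSC replicate 1 it turned for Selp_low paHSCs over yHSCs (0.16).

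**Figure D2:**
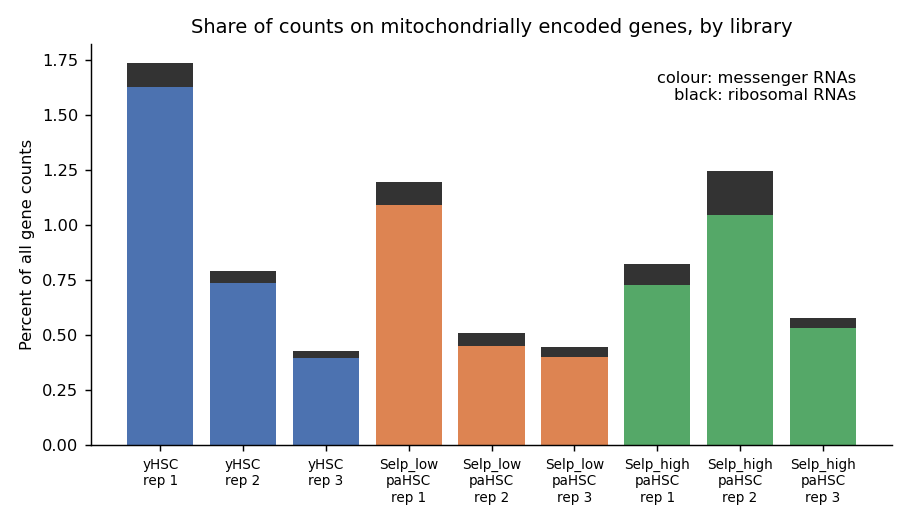
Percent of all gene counts on mitochondrially encoded genes in each of the 9 libraries, stacked as the 13 messenger RNAs (colour) and the 2 ribosomal RNAs (black). The yHSC libraries run from 0.428% to 1.73% and span the range of both paHSC fractions, from 0.449% to 1.25%.

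In counts on ribosomal RNAs relative to counts on messengers, young and pre-aged libraries did not overlap. How the cDNA step captured ribosomal RNA is not given in the sources used here, so these values describe counts, not amounts of RNA. Counts on mt-Rnr1 and mt-Rnr2 per 100 counts on the 13 messengers were 6.71, 7.45 and 7.56 in yHSCs. In Selp_low paHSCs they were 9.61, 13.2 and 11.3, and in Selp_high paHSCs 13.1, 19.1 and 8.57. Every paHSC library of either fraction lay above every yHSC library, and the paHSC fractions overlapped each other. The ratio was 1.56-fold higher in Selp_low paHSCs than in yHSCs (log2 difference 0.64 ± 0.14, SE) and 1.78-fold higher in Selp_high paHSCs than in yHSCs (0.83 ± 0.34, SE), each with p = 0.1 in the exact permutation test (2-sided), the smallest it can give. Selp_high paHSCs differed from Selp_low paHSCs by 0.19 ± 0.36 (SE, p = 0.7, exact permutation test), and by -0.090 without Selp_high replicate 2. These 2 comparisons with yHSCs share the same yHSC libraries, and the ratio does not use the library total. The summed megakaryocyte and platelet markers were highest in Selp_high replicate 2 (9096 CPM), which also had the highest ratio. The other Selp_high libraries did not follow this order, with 1525 CPM and a ratio of 13.1 in replicate 1 and 4176 CPM and 8.57 in replicate 3. The part of such cells in the ratio was not tested. Within Selp_low paHSCs the higher ratios were those of replicate 2, with the large immunoglobulin share, and replicate 3, with the highest neutrophil marker level. Replicate 1 (9.61) was also above every yHSC library, and the log2 difference from yHSCs was 0.52 without replicate 2 and 0.64 without replicate 3. Replicate 1 in turn had B and plasma cell markers at 5957 CPM, against 189 to 335 CPM in yHSCs. The part of any of these cells in the ratios was not tested.

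Most of the ribosomal counts were on mt-Rnr2. Its counts per 100 messenger counts were 6.33, 5.42 and 5.86 in yHSCs, 8.98, 11.2 and 9.46 in Selp_low paHSCs and 12.1, 16.5 and 6.42 in Selp_high paHSCs. Again no paHSC library reached down to the yHSC range, though Selp_high replicate 3 (6.42) lay next to yHSC replicate 1 (6.33). The log2 difference was 0.75 ± 0.11 (SE) for Selp_low paHSCs over yHSCs and 0.89 ± 0.41 (SE) for Selp_high paHSCs over yHSCs, each at the smallest exact p of 0.1. As a share of all mitochondrial counts, mt-Rnr2 took 5.04% to 5.93% in yHSCs, 8.19% to 9.86% in Selp_low paHSCs and 5.91% to 13.9% in Selp_high paHSCs. In that share Selp_high replicate 3 fell inside the yHSC range.

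mt-Rnr1 followed another pattern, by replicate number. Its counts per 100 messenger counts were 0.387, 2.03 and 1.71 in yHSCs, 0.632, 2.04 and 1.79 in Selp_low paHSCs and 0.944, 2.59 and 2.15 in Selp_high paHSCs. The library numbered 1 was the lowest in every group, and all 3 libraries numbered 1 lay below the other 6. Likewise mt-Rnr2 had 16.3, 14.2 and 12.8 counts per count on mt-Rnr1 in the libraries numbered 1 against 2.66 to 6.39 in the other 6. The labels do not say whether a number marks a shared preparation. Residuals of libraries with equal numbers correlated above 0.1 between the paHSC fractions but not with yHSCs (-0.42 to 0.07). Unequal numbers of Selp_high paHSCs and yHSCs reached 0.46, so a value above 0.1 does not by itself mark a pair. Differences within numbers are therefore descriptive. The groups overlapped, and the differences over libraries were 0.26 ± 0.93 (SE, exact permutation p = 0.6) for Selp_low paHSCs over yHSCs, 0.65 ± 0.88 (SE, exact permutation p = 0.5) for Selp_high paHSCs over yHSCs and 0.39 ± 0.70 (SE, exact permutation p = 0.5) for Selp_high over Selp_low paHSCs. Taken within the libraries numbered 1, 2 and 3, the log2 difference for Selp_low paHSCs over yHSCs was 0.71, 0.0049 and 0.07, for Selp_high paHSCs over yHSCs 1.29, 0.35 and 0.33, and for Selp_high over Selp_low paHSCs 0.58, 0.34 and 0.26. Within the same numbers mt-Rnr2 differed by 0.51, 1.04 and 0.69, by 0.94, 1.61 and 0.13, and by 0.43, 0.57 and -0.56 in these comparisons.

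**Figure D3:**
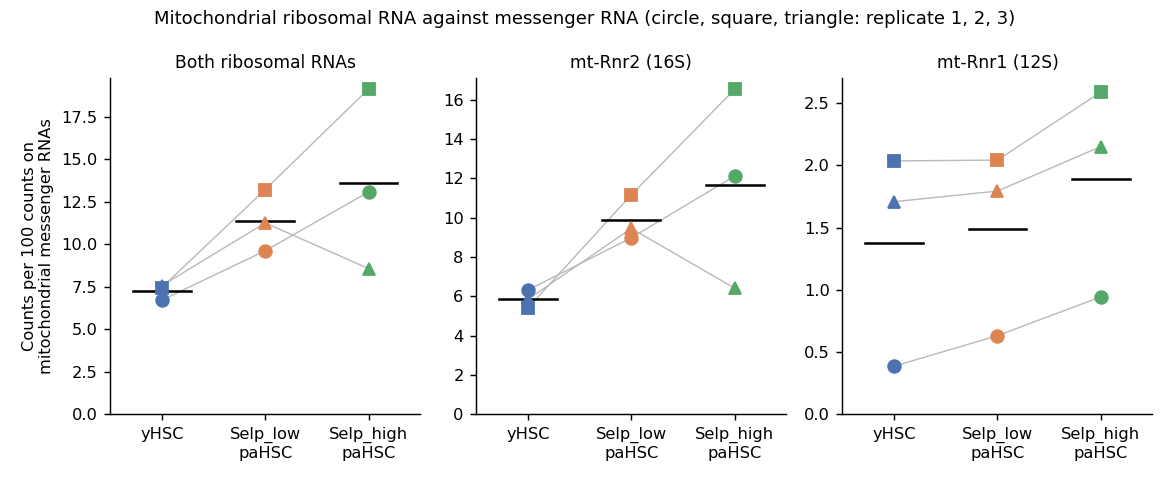
Counts on both mitochondrial ribosomal RNAs (left), mt-Rnr2 (middle) and mt-Rnr1 (right) per 100 counts on mitochondrial messengers, with 1 point per library, black bars for group means and grey lines joining equal replicate numbers. The lines are not taken to mark pairs with yHSCs. For both together, the yHSC libraries lie between 6.71 and 7.56 and all paHSC libraries at 8.57 or above, while for mt-Rnr1 the libraries numbered 1 (circles, 0.387 to 0.944) lie below all others.

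Among the messengers, the same pair led in every library. mt-Co1 and mt-Cytb together took 51.1% to 69.1% of mitochondrial counts. mt-Co1 took 25.2% to 37.6% in yHSCs, 34.0% to 37.8% in Selp_low paHSCs and 24.4% to 41.6% in Selp_high paHSCs. mt-Cytb took 25.6% to 31.3%, 23.3% to 26.7% and 24.2% to 35.8% in the same order. Among complex I messengers, the share of mt-Nd1 was 8.87% to 14.1% in Selp_high paHSCs and 14.8% to 16.7% in Selp_low paHSCs, which did not overlap, with 12.1% to 16.4% in yHSCs. mt-Nd5 ranged from 3.82% to 8.92% in yHSCs, from 3.57% to 4.81% in Selp_low paHSCs and from 4.03% to 8.91% in Selp_high paHSCs, and mt-Nd2, mt-Nd4 and mt-Nd6 also overlapped between all groups. No test was run on these shares, which are shares of 1 small set of genes, and no rate of separation by chance was set beside them. For groups that do not overlap at all, an exact permutation test (2-sided) could give no p below 0.1. With all detected genes looked at in every comparison, some groups would therefore separate by chance. The separations named here were picked after the values were seen and are descriptive.

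For some of the rarer members the groups also did not overlap in their share of mitochondrial counts, in places by narrow margins. The limits given above hold here too, separation by chance among them, and counting error was not set against these margins. mt-Tp took 0.0282% to 0.0563% in Selp_low paHSCs, above the 0.0118% to 0.0192% of yHSCs and the 0.00992% to 0.0280% of Selp_high paHSCs. The closest libraries of the paHSC fractions were Selp_low replicate 3, with 43 counts on mt-Tp, and Selp_high replicate 2, with 119. mt-Co2, a core subunit of complex IV, took 0.105% to 0.123% in Selp_high paHSCs, above yHSCs (0.0624% to 0.0979%). It was narrowly above Selp_low paHSCs (0.0766% to 0.104%), whose highest value rests on 159 counts. With the counts of its chromosome 1 copy added it overlapped with yHSCs (0.160% to 0.460% against 0.109% to 0.164%) and stayed above Selp_low paHSCs (0.101% to 0.156%). mt-Co3, the remaining core subunit of complex IV, took 0.104% to 0.191% in Selp_low paHSCs against 0.0665% to 0.0767% in yHSCs and 0.0721% to 0.105% in Selp_high paHSCs. Alone, mt-Co3 overlapped between the paHSC fractions. With its copy added, the Selp_low paHSC libraries (1.33% to 1.60%) lay above those of yHSCs (0.462% to 0.771%) and of Selp_high paHSCs (0.495% to 0.933%). mt-Atp6, the proton channel subunit of ATP synthase, overlapped between all groups alone. With its copy added, it was lower in Selp_low paHSCs (0.438% to 0.565%) than in yHSCs (0.654% to 0.692%). Whether these reads came from mitochondrial DNA or from the copies cannot be told apart.

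In the test across all genes, no mitochondrial gene passed in any comparison. edgeR's quasi-likelihood test with TMM scaling was run on 15 of the 37 genes, the 22 others (mt-Nd4l and 21 transfer RNAs) having too few counts, and a gene counted as called with a Benjamini-Hochberg adjusted p of at most 0.05 together with a log2 fold change of at least 1 in size. For Selp_low paHSCs over yHSCs, 0 of 15 were called by edgeR (0% of the 20437 genes tested), 0 by DESeq2 (2.63% of its genes) and 0 by limma voom with quality weights (2.11%), and 0 had an unadjusted edgeR p under 0.05 (11.3% of all genes). Their median log2 fold change was 0.22, with 11 of 15 above 0, beside a median of 0.08 over all genes. Scaling by library totals moved the median of all genes to -0.47 and that of the mitochondrial genes to -0.33, with 4 of 15 above 0. By limma voom 14 of 15 were above 0 (median 0.83, all genes 0.20) and 6 had an unadjusted p under 0.05, and without yHSC replicate 1 edgeR gave 14 above 0 (median 0.85) and 4 with such a p. Without yHSC replicate 2 or 3, 7 and 5 were above 0 (medians -0.026 and -0.069). mt-Nd3 was the single member with every Selp_low paHSC library above every yHSC library (9.59% of all genes), and 0 lay wholly below (6.74%). On library totals 0 of 15 lay wholly above, mt-Nd3 included. Its level was 4.33, 4.89 and 4.65 CPM in yHSCs and 4.95, 7.84 and 15.8 CPM in Selp_low paHSCs (log2 fold change 1.07 ± 0.47 SE, edgeR adjusted p = 0.46). The largest differences were those of mt-Tp (1.52 ± 0.86 SE), mt-Nd3 and mt-Co3 (0.92 ± 0.55 SE), with edgeR adjusted p of 0.58 and 0.61 for mt-Tp and mt-Co3.

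For Selp_high paHSCs over yHSCs, 0 of 15 mitochondrial genes were called by edgeR (0.165% of 20017 genes), 0 by DESeq2 (3.26%) and 0 by limma voom (1.37%), and 0 had an unadjusted edgeR p under 0.05 (7.59%). In 0 of 15 did the libraries lie wholly above (8.52% of all genes) or wholly below (5.28%). The median log2 fold change was 0.02, beside -0.03 over all genes, and single genes ran from -0.53 ± 0.62 (SE) for mt-Nd1 to 0.83 ± 0.69 (SE) for mt-Rnr2, with edgeR adjusted p of 0.99 and 0.95. Without yHSC replicate 1, 15 of 15 had a log2 fold change above 0 (median 0.58), mt-Nd1 turned to 0.28, and 1 gene had an unadjusted edgeR p under 0.05. Without yHSC replicate 3, 4 of 15 were above 0 (median -0.28), and without Selp_high replicate 2, 3 of 15 (median -0.36). By limma voom 14 of 15 were above 0 (median 0.59) and 0 had an unadjusted p under 0.05. The level of mt-Nd1 was 2396, 1067 and 478 CPM in yHSCs and 668, 1475 and 701 CPM in Selp_high paHSCs, so that 1 yHSC library decided its sign. mt-Rnr1 differed by 0.71 ± 0.54 (SE, edgeR adjusted p = 0.93).

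For Selp_high over Selp_low paHSCs, 0 of 15 were called by edgeR (0% of 20370 genes), 0 by DESeq2 (2.46%) and 0 by limma voom (0%), and 0 had an unadjusted edgeR p under 0.05 (12.5%). In 0 of 15 did the libraries lie wholly above (10.3% of all genes) or wholly below (10.6%). The median log2 fold change was -0.18, beside -0.11 over all genes, and with library totals in place of TMM factors it was 0.25, beside 0.37, with 11 of 15 above 0 in place of 6. By limma voom 3 were above 0 and 4 had an unadjusted p under 0.05. Without Selp_high replicate 2 edgeR gave 2 above 0 (median -0.48) and 2 with such a p, and with replicate numbers as a block 1 had such a p. Without Selp_low replicate 1 or Selp_high replicate 3, 8 of 15 were above 0 in each case. The largest differences were those of mt-Tp (-1.17 ± 0.78 SE), mt-Nd3 (-0.96 ± 0.94 SE) and mt-Co3 (-0.69 ± 0.44 SE), with edgeR adjusted p of 0.58, 0.71 and 0.56. The ribosomal RNAs mt-Rnr2 (0.15 ± 0.57 SE) and mt-Rnr1 (0.29 ± 0.55 SE) had edgeR adjusted p of 0.93 and 0.86. mt-Nd3 was at 0.646, 10.7 and 3.35 CPM in the Selp_high paHSC libraries, and the middle value was the one inside the Selp_low paHSC range of 4.95 to 15.8 CPM.

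The nuclear partners of the mitochondrial subunits were read next. The list holds 74 nuclear genes for subunits of complexes I (37), III (9), IV (11) and V (17), and all were tested. Their summed level was 10134, 7724 and 8549 TMM-scaled CPM in yHSCs, 13567, 16678 and 18428 CPM in Selp_low paHSCs and 11975, 10251 and 12010 CPM in Selp_high paHSCs. The Selp_low paHSC libraries lay above all others, and those of Selp_high paHSCs above those of yHSCs. On library totals, without TMM factors, the order did not hold for Selp_low paHSCs: the sums were 12041, 9450 and 9232 CPM in yHSCs, 14751, 9084 and 14465 CPM in Selp_low paHSCs and 13102, 12210 and 12630 CPM in Selp_high paHSCs, so that Selp_low replicate 2 was the lowest of the 9. The highest TMM-scaled values were those of Selp_low replicates 2 and 3, the libraries with the large immunoglobulin share and the highest neutrophil marker level, whose TMM factors of 0.545 and 0.785 were the lowest of the 9, and the part of either in the values was not tested. On the same scale the 13 mitochondrial messengers summed to 13677, 6036 and 3683 CPM in yHSCs, 10019, 8271 and 5137 CPM in Selp_low paHSCs and 6662, 8781 and 5050.1 CPM in Selp_high paHSCs, which overlapped.

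**Figure D4:**
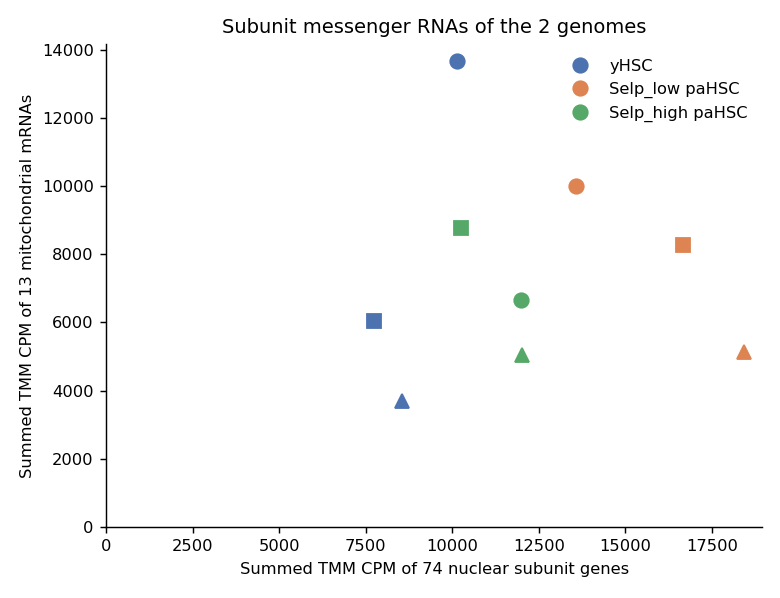
Summed TMM-scaled CPM of the 13 mitochondrial messengers (vertical axis) against that of 74 nuclear subunit genes (horizontal axis), with 1 point per library and circle, square and triangle for replicates 1, 2 and 3. Along the horizontal axis Selp_low paHSC libraries lie at 13567 and above and all others at 12010 and below, while along the vertical axis the groups overlap. On library totals the Selp_low paHSC libraries overlap with the others along the horizontal axis too, replicate 2 being at 9084 CPM.

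For Selp_low paHSCs over yHSCs, 73 of 74 nuclear subunit genes had a log2 fold change above 0, with a median of 1.21 beside 0.08 over all genes. None of the 74 was called by edgeR, whose smallest adjusted p over all genes was 0.33, but 64 had an unadjusted p under 0.05 (11.3% of all genes) and 69 had no overlap of libraries (9.59% of all genes wholly above). DESeq2 called 6 (2.63% of all genes) and limma voom 50 (2.11% of all genes). With 1 library left out, 51 to 64 had an unadjusted edgeR p under 0.05. Without TMM factors the median was 0.59, beside -0.47 over all genes, with 65 above 0, 7 at an unadjusted p under 0.05, 18 wholly above (1.65% of all genes) and 1 wholly below (17.7%). The genes with the smallest p were Ndufa2 of complex I (1.53 ± 0.29 SE), Cox7b of complex IV (1.29 ± 0.25 SE) and Atp5mpl of ATP synthase (1.59 ± 0.31 SE), each with an edgeR adjusted p of 0.33. Ndufa2 was at 76.2, 55.03 and 54.5 CPM in yHSCs and at 145, 217 and 159 CPM in Selp_low paHSCs.

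For Selp_high over Selp_low paHSCs the same list lay lower. In this comparison 72 of 74 had a log2 fold change below 0 (median -0.76, beside -0.11 over all genes), 46 had an unadjusted p under 0.05 (12.5% of all genes) and 55 lay wholly below (10.6% of all genes). edgeR called 0, DESeq2 1 (2.46% of all genes) and limma voom 0. Without TMM factors 54 lay below 0 (median -0.25, beside 0.37), 1 had an unadjusted p under 0.05 and 10 lay wholly below (2.72% of all genes) against 2 wholly above (18.2%). The 46 genes at an unadjusted p under 0.05 became 26 without Selp_low replicate 2 and 30 without Selp_high replicate 3. Ndufa1 (-1.74 ± 0.34 SE) and Ndufs6 (-1.14 ± 0.23 SE) of complex I and Uqcrq of complex III (-1.09 ± 0.23 SE) had the smallest p, with an edgeR adjusted p of 0.34 each. Ndufa1, the gene DESeq2 called, was at 168, 373 and 248 CPM in Selp_low paHSCs and at 78.2, 74.02 and 85.1 CPM in Selp_high paHSCs. For Selp_high paHSCs over yHSCs the median was 0.38, beside -0.03, with 71 of 74 above 0, 3 at an unadjusted p under 0.05 (7.59%), 22 wholly above (8.52%) and 0 called by edgeR or DESeq2. limma voom called 1, Atp5mpl (1.37% of all genes). Without yHSC replicate 1 the median was 0.62 and 42 had an unadjusted edgeR p under 0.05, while on library totals 14 lay wholly above (7.87% of all genes) and 1 below (6.58%). Atp5mpl (1.06 ± 0.28 SE), Cox6b1 of complex IV (0.61 ± 0.25 SE) and Ndufa11 of complex I (0.82 ± 0.35 SE) had the smallest p there, with edgeR adjusted p of 0.30, 0.64 and 0.65. The comparisons share the Selp_low paHSC and the yHSC libraries.

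The level of mitochondrial messengers relative to nuclear subunit messengers was set against the replicate spread as a ratio within libraries. Counts on the 13 messengers per count on the 74 nuclear genes were 1.35, 0.781 and 0.431 in yHSCs, 0.738, 0.496 and 0.279 in Selp_low paHSCs and 0.556, 0.857 and 0.420 in Selp_high paHSCs. The groups overlapped. The log2 difference was -0.72 ± 0.63 (SE, exact permutation p = 0.4) for Selp_low paHSCs over yHSCs, -0.39 ± 0.56 (SE, exact permutation p = 0.6) for Selp_high paHSCs over yHSCs and 0.32 ± 0.51 (SE, exact permutation p = 0.6) for Selp_high over Selp_low paHSCs. Left-out libraries moved the first from -1.14 to -0.31 and turned the other 2, to 0.012 without yHSC replicate 1 and to -0.048 without Selp_low replicate 3. By complex, this ratio was 0.317 to 1.24 for complex I, 0.573 to 3.08 for complex III and 0.593 to 3.27 for complex IV. For complex V, whose mitochondrial messengers are mt-Atp6 and mt-Atp8, it was 0.00210 to 0.00941, values that rest on messengers with few counts.

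**Figure D5:**
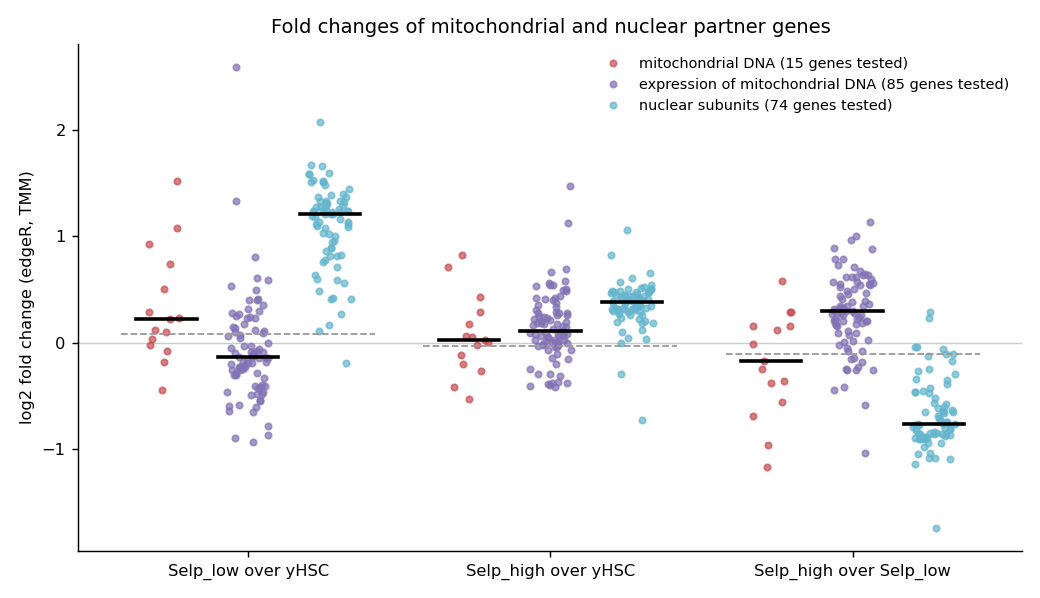
log2 fold changes (edgeR with TMM factors) of the tested mitochondrial genes (15), nuclear genes of mitochondrial DNA expression (85) and nuclear subunit genes (74) in the 3 comparisons. Each point is 1 gene, black bars are list medians and dashed lines the medians of all genes tested, and the nuclear subunit medians lie at 1.21, 0.38 and -0.76 while those of the mitochondrial genes lie at 0.22, 0.02 and -0.18.

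A further list of 86 nuclear genes was read. It held genes that transcribe, copy, process and translate mitochondrial DNA, and 7 nuclear regulators, among them Nrf1 and Ppargc1a. Of this list, 85 genes were tested. Their median log2 fold change was -0.14 for Selp_low paHSCs over yHSCs (29 of 85 above 0), 0.11 for Selp_high paHSCs over yHSCs (61 of 85 above 0) and 0.30 for Selp_high over Selp_low paHSCs (69 of 85 above 0). For the 7 nuclear regulators alone the medians were -0.48, -0.38 and 0.17 in these comparisons, with 2, 1 and 5 above 0. Of the 85 genes, 3, 4 and 7 had an unadjusted edgeR p under 0.05, against 11.3%, 7.59% and 12.5% of all genes. edgeR called 0 in each, limma voom 0 in each, and DESeq2 1, Wars2, for Selp_high paHSCs over yHSCs (3.26% of all genes). Libraries lay wholly above in 5, 8 and 22 genes (9.59%, 8.52% and 10.3% of all genes) and wholly below in 3, 0 and 1 (6.74%, 5.28% and 10.6%). On library totals the counts wholly above were 0, 7 and 40 (1.65%, 7.87% and 18.2% of all genes) and those wholly below 21, 2 and 0 (17.7%, 6.58% and 2.72%). Scaling by library totals gave medians of -0.69, 0.07 and 0.73, beside -0.47, -0.06 and 0.37 over all genes. For Selp_low paHSCs over yHSCs the 3 genes at an unadjusted p under 0.05, all higher, became 1 higher and 13 lower with library totals, 5 higher and 17 lower by limma voom and 2 higher and 14 lower without yHSC replicate 1. For Selp_high over Selp_low paHSCs the 7 genes became 16 with library totals or with replicate numbers as a block, and 2 without Selp_low replicate 1 or Selp_high replicate 3.

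Polrmt, the RNA polymerase of mitochondria, was at 20.6, 27.01 and 21.2 CPM in Selp_low paHSCs and at 59.0, 38.0 and 41.8 CPM in Selp_high paHSCs. This is a log2 fold change of 1.00 ± 0.28 (SE) with an edgeR adjusted p of 0.34, and yHSCs spanned 20.8 to 53.7 CPM. Vars2 and Wars2, which charge mitochondrial transfer RNAs with valine and tryptophan, differed by 1.13 ± 0.34 and 0.88 ± 0.29 (SE) in the same comparison, each with an edgeR adjusted p of 0.34. Wars2 was at 9.61, 9.27 and 10.4 CPM in yHSCs, 12.03, 12.4 and 10.9 CPM in Selp_low paHSCs and 19.3, 19.7 and 26.4 CPM in Selp_high paHSCs, so that the Selp_high paHSC libraries lay above all others. Over yHSCs it differed by 1.12 ± 0.29 (SE, edgeR adjusted p = 0.28, DESeq2 adjusted p = 0.015). Rexo2, an exonuclease that degrades short mitochondrial RNA, and Tufm, the elongation factor Tu of mitochondria, differed by 0.66 ± 0.27 and 0.56 ± 0.23 (SE) there, each with an edgeR adjusted p of 0.63. For Selp_low paHSCs over yHSCs the smallest p were those of Rexo2 (1.33 ± 0.41 SE), the elongation factor Tsfm (0.80 ± 0.26 SE) and Lars2, which charges the leucine transfer RNAs (2.59 ± 0.87 SE), with edgeR adjusted p of 0.34, 0.35 and 0.36. Lars2 was at 60.5, 801 and 315 CPM in Selp_low paHSCs and 37.9 to 84.0 CPM in yHSCs, which overlapped, and its log2 fold change was 1.46 to 3.09 with 1 library left out. The value of 801 CPM was that of Selp_low replicate 2, the library with the large immunoglobulin share, whose part in it was not tested.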

How the data were processed

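RNA-seq was read in 9 libraries of sorted mouse HSCs, 3 per group. RNA was extracted with the RNeasy Mini Kit, cDNA was made with the SMARTer Ultra Low RNA Kit and libraries with TruePrep V2. Per the methods and the submitters' processing notes (mm39, CASAVA 1.8, HISAT2 2.2.1, featureCounts 2.0.6), the authors trimmed reads with fastp, aligned them and counted them per gene, and the deposited values are raw counts with no normalization. Neither the annotation version, nor whether counting used strand, nor how it handled multi-mapping reads is stated in what was read here. Columns of gene length and position came from the same table.

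The counts were fitted in R 4.3.3 with edgeR 4.0.16 (each pair of groups alone, filterByExpr, TMM, quasi-likelihood test in its legacy setting, Benjamini-Hochberg adjustment over all genes tested), with DESeq2 1.42.0 and limma 3.58.1 as alternatives, after a test on simulated data. Levels of single genes and list sums are CPM with TMM factors over all 9 libraries, while levels per kilobase and marker sums are scaled by library totals alone. Shares and ratios were compared by an exact permutation test over libraries, 2-sided. Residuals of libraries with equal replicate numbers were correlated to see whether the numbers mark pairs. Between the paHSC fractions they correlated by 0.19, 0.30 and 0.30, above the 0.1 set as the limit for pairing. With yHSCs they correlated by -0.42 to 0.07. Unequal numbers gave -0.25 to 0.0034 between the paHSC fractions. They reached 0.46 for Selp_high replicate 1 with yHSC replicate 2 and 0.41 for Selp_high replicate 2 with yHSC replicate 1. A value above 0.1 therefore does not by itself mark a pair. The main tests of Selp_high over Selp_low paHSCs did not pair libraries by number, and the replicate block was run as an alternative. Window uniqueness and printed sequences used GENCODE M21 transcripts (GRCm38), in which all 37 genes have the positions of the deposited table. The paper calls the libraries of each group biological repeats. Neither it nor the labels say that each came from a separate animal, so p-values measure the spread between these libraries.

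The members and gene lists were chosen with earlier results of these data known. Fold changes were given for mt-Rnr1, mt-Rnr2, the 3 tested mitochondrial genes with the largest absolute change per comparison, the called genes of each nuclear list or else the 3 with the smallest p, and Selp. Genes shown by their share of mitochondrial counts, and the libraries numbered 1, were singled out after their values were seen. Alternatives covered scaling (RLE factors, library totals), the low-count filter (absent, or mean count 10 and above), DESeq2, limma voom with quality weights, the newer edgeR setting, 1 joint fit of the 9 libraries, a table of protein-coding genes only, a replicate block, other denominators, gene length and each library left out. Chosen after seeing the data were the addition of the chromosome 1 copies, the restriction to genes with at least 50% unique windows, and mt-Rnr1 alone over the messengers, with and without the replicate block.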

Additional observations from a re-analysis of the deposited data

How the results depend on the processing

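The count of called mitochondrial genes was 0 in all 3 comparisons under every alternative, the replicate block included. The ratio of ribosomal to messenger RNA over yHSCs kept its direction in every alternative run, with 1 library left out at 0.52 to 0.75 (log2) for Selp_low paHSCs and 0.55 to 1.13 for Selp_high paHSCs. With the replicate block the exact p was 0.25, the smallest 3 pairs allow, though equal numbers are not taken to mark pairs with yHSCs. For Selp_high over Selp_low paHSCs this ratio ran from -0.090 to 0.49 with 1 library left out.

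The sign of the mitochondrial share was not stable. For Selp_high over Selp_low paHSCs it was -0.15 with effective library sizes. For Selp_high paHSCs over yHSCs it was -0.079 for the 13 messengers alone, -0.10 as a difference in percent, -0.00061 with the chromosome 1 copies added, -0.0030 for genes with mostly unique windows, and -0.48 to 0.53 with 1 library left out. For Selp_low paHSCs over yHSCs it was 0.22 with effective library sizes and -0.85 to 0.16 with 1 library left out. The ratio of mitochondrial to nuclear subunit messengers ran from -0.048 to 0.65 for Selp_high over Selp_low paHSCs and from -0.81 to 0.012 for Selp_high paHSCs over yHSCs with 1 library left out.

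Nuclear subunits called numbered 1 without a filter and 1 by DESeq2 for Selp_high over Selp_low paHSCs, 1 by limma voom for Selp_high paHSCs over yHSCs, and 1 without a filter, 6 by DESeq2 and 50 by limma voom for Selp_low paHSCs over yHSCs, against 0 by edgeR. For genes of mitochondrial DNA expression the single change was 1 call by DESeq2 for Selp_high paHSCs over yHSCs. Among named genes, mt-Rnr2 for Selp_high over Selp_low paHSCs was -0.73 by limma voom, -0.039 with the replicate block and -0.45 to 0.55 with 1 library left out, and mt-Rnr1 there was -0.34 to 0.81. mt-Nd1 for Selp_high paHSCs over yHSCs was 0.30 by limma voom and -1.01 to 0.28 with 1 library left out, and mt-Rnr1 for Selp_low paHSCs over yHSCs was -0.27 with library totals and -0.027 to 0.93 with 1 library left out. The causes were not tested. The replicate block changed no call on a mitochondrial gene or nuclear list, and with 3 libraries per group and these counts, differences of the size seen in the mitochondrial share could not be separated from the spread between libraries.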
